A study of Mus musculus with 5 samples.

Results

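Desmosome genes were followed in 5 RNA-seq libraries of cells sorted from precancerous mammary lesions. The 10 genes were taken by symbol from the 24347 symbols of the deposited tables: the cadherins Dsg2, Dsg3, Dsc2 and Dsc3, the armadillo proteins Jup, Pkp1, Pkp2 and Pkp3, the plakin Dsp and the tetraspan protein Perp. All 10 were present. Dsg3 stood at an FPKM (fragments mapped to a transcript, per kilobase of its length and relative to all mapped fragments) of 22.2 and 32.5 in the Krt6a+ libraries, against 0.40, 0 and 2.00 in the WAP+ libraries, and Dsc2, Jup, Pkp1, Pkp3, Dsp and Perp were also higher in each Krt6a+ library than in every WAP+ library. Dsg2 was lower in each Krt6a+ library than in every WAP+ library, and Pkp2 overlapped between the populations. None of the differences passed a test adjusted over all genes.

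Desmosomes are spot-like junctions that tie the keratin filaments of neighbouring epithelial cells together. Desmogleins (Dsg) and desmocollins (Dsc) span the gap between cells, plakoglobin (Jup) and the plakophilins (Pkp) bind their tails inside the cell, and desmoplakin (Dsp) joins this plaque to keratin. Which desmosomal cadherins and plakophilins a cell makes varies with the epithelium, with Dsg2 and Pkp2 typical of simple epithelia and Dsg3, Dsc3 and Pkp1 of stratified ones. In the mammary gland, desmosomes join luminal and basal cells.

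All libraries came from MMTV-Wnt-1 transgenic mice on a mixed FVB, SJL and C57BL/6 background, in which the MMTV promoter drives Wnt-1 in the mammary epithelium and gives hyperplastic lesions. No library of normal gland was part of the comparison. The 2 Krt6a+ libraries, numbered 2 and 3, were of cells labelled keratin 6a positive precancerous stem cells, and the 3 WAP+ libraries, numbered 1 to 3, were of cells labelled positive for whey acidic protein, a milk protein. Each was amplified cDNA of a small pool of cells sorted with an antibody to TVA. The labels do not give the animals' age at collection or how TVA marked each population, and do not say that the libraries came from separate animals. The p-values therefore measure only the spread between these libraries, which may be technical.

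Krt6a, for which the first population is named, had an FPKM of 1380 and 1133 in Krt6a+ libraries, against 168, 50.0 and 120 in WAP+ libraries. Wap was listed at 0 in both Krt6a+ libraries and had an FPKM of 50.1, 126 and 13.9 in WAP+ libraries. From the widths of the deposited intervals, read as counting error, depth was about 6020000 and 4740000 fragments in Krt6a+ libraries and 4280000 to 5970000 in WAP+ libraries. Spearman's rho was taken over the 5334 genes that reached FPKM 1 in every library. Krt6a+ library 3 had a rho of 0.743 with Krt6a+ library 2, and of 0.761, 0.706 and 0.750 with WAP+ libraries 1, 2 and 3. Between WAP+ libraries rho was 0.843 to 0.849. The differences of Dsg3, Dsc2, Pkp2, Dsp and Perp are therefore also given below without Krt6a+ library 3. Without that library the log2 difference, Krt6a+ minus WAP+, was -1.04 for Dsg2, 1.34 for Jup, 2.21 for Pkp1 and 1.51 for Pkp3. Gapdh was listed at 0 in Krt6a+ library 2 and in WAP+ libraries 1 and 3, although every cell uses it. It stood at only 1.66 in Krt6a+ library 3 and 1.48 in WAP+ library 2. The deposited status read OK for every value. A value of 0, or one near it, may therefore be an estimate that failed. A lower value in such pools can mean fewer cells of a type or less RNA per cell, and these cannot be told apart.

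Of the 10 genes, 9 reached FPKM 1 in 2 or more libraries, the level set for testing, which Dsc3 did not. Groups did not overlap for 8 of the 9 tested genes, with Krt6a+ higher for 7 and lower for 1. Among all 9682 tested genes, 17.4% did not overlap with Krt6a+ higher and 17.4% with Krt6a+ lower. By limma, 0 of the 9 genes passed an adjusted p of 0.05, against 0.258% of all genes higher and 0.434% lower (25 and 42 genes). With a pseudocount of 5, Dsg3 and Dsc2 passed, and when FPKM 1 was required in every library, Dsc2 and Perp did. Unadjusted, 7 of the 9 genes had p under 0.05 with Krt6a+ higher and 0 with it lower, against 7.68% and 9.44% of all genes. The median log2 difference of the 9 genes, Krt6a+ minus WAP+, was 1.64, beside -0.01 over all tested genes. Dsg3 met the level for testing through its Krt6a+ libraries, where it was high. Its p-values and its part in these counts and in the median are therefore a description. Over all genes the calls numbered 39 higher and 39 lower after quantile normalization, 10 and 56 without Krt6a+ library 2, 45 and 103 without Krt6a+ library 3, and 2 higher with 3 or 4 lower without any 1 of the WAP+ libraries.

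**Figure D1:**
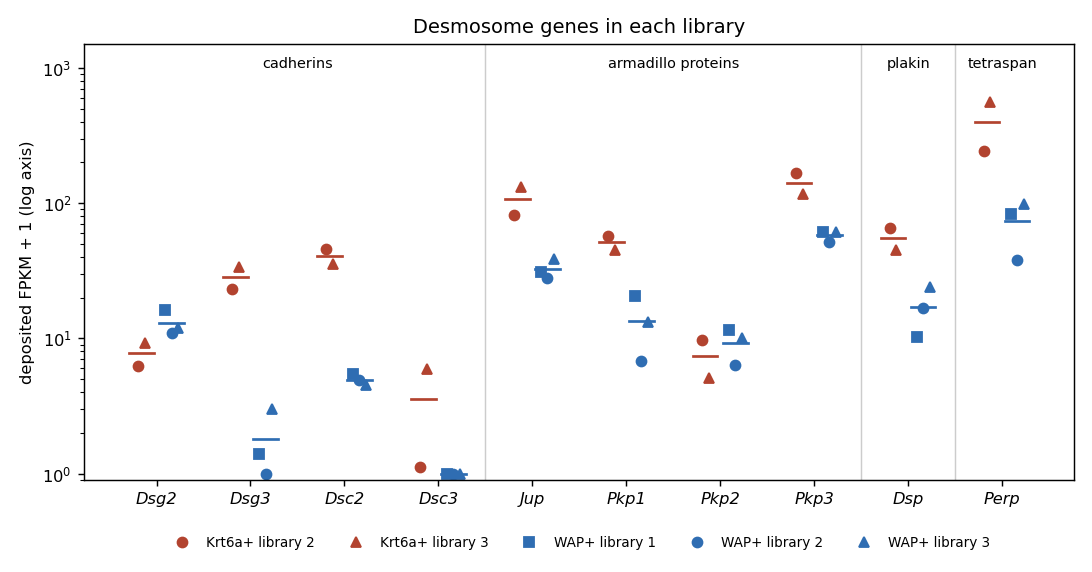
Deposited FPKM + 1, on a log axis, of the 10 desmosome genes in each of the 2 Krt6a+ libraries (red) and 3 WAP+ libraries (blue); horizontal lines are group means. Red points lie above all blue points for Dsg3, Dsc2, Dsc3, Jup, Pkp1, Pkp3, Dsp and Perp, and below them for Dsg2.

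Desmogleins. In mm10 the 4 cadherin genes lie along chromosome 18 in the order Dsc3 (19960930 to 20002097), Dsc2 (20030798 to 20059505), Dsg3 (20510304 to 20541310) and Dsg2 (20558116 to 20604526). Dsg3 and Dsg2 are thus 16.8 kb apart. Dsg3, a desmoglein of the basal layers of stratified epithelium and an autoantigen of pemphigus in humans, averaged a scaled FPKM of 25.2 ± 4.30 (SD, n = 2) in Krt6a+ libraries and 0.86 ± 1.21 (SD, n = 3) in WAP+ libraries. The log2 difference was 3.99 ± 0.73 SE, or 15.9-fold after adding 1 to the scaled FPKM (limma, adjusted p = 0.0550). The intervals behind its FPKM corresponded to about 656 and 790 fragments in Krt6a+ libraries, against about 8.00 and 58.9 in WAP+ libraries 1 and 3. WAP+ library 2 listed the gene at 0 with bounds of 0. Without Krt6a+ library 3 the log2 difference was 3.81 and without Krt6a+ library 2 it was 4.17. Without WAP+ library 2 it was 3.64 (limma, adjusted p = 0.201).

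Dsg2, the desmoglein found in all tissues with desmosomes, went the other way. Its FPKM was 5.28 and 8.27 in Krt6a+ libraries, against 15.2, 10.03 and 10.8 in WAP+ libraries. The highest Krt6a+ value lay below the lowest WAP+ value, and the deposited bounds of Krt6a+ library 3 (7.26 to 9.27) and of WAP+ library 2 (9.10 to 11.0) overlapped slightly. The log2 difference was -0.86 ± 0.52 SE, with a 95% interval of -2.05 to 0.34 (limma, adjusted p = 0.443). Of the summed FPKM of the 4 cadherins, Dsg2 held 7.29% and 10.3% in Krt6a+ libraries, against 75.9%, 71.7% and 66.3% in WAP+ libraries.

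The desmogleins were also set against each other within each library, on deposited FPKM. As log2 of Dsg3 over Dsg2, each with 1 added, it was 1.88 and 1.86 in Krt6a+ libraries, against -3.53, -3.46 and -1.98 in WAP+ libraries. Dsg3 transcripts were thus above Dsg2 in each Krt6a+ library and below it in each WAP+ library. The group means differed by 4.86 (exact two-sided permutation test, p = 0.1, the smallest that 2 against 3 libraries allow; adjusted p = 0.133 over 4 paralog ratios). In WAP+ library 2, where Dsg3 was at 0, the ratio is set by the added 1, and the difference was 6.67 with 0.1 added and 3.01 with 5 added.

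Desmocollins. Dsc2, the widely expressed desmocollin, had an FPKM of 44.8 and 34.7 in Krt6a+ libraries, against 4.43, 3.96 and 3.50 in WAP+ libraries. The WAP+ values lay within 1.26-fold of each other, and the lower Krt6a+ value was 7.83 times the highest of them. The log2 difference was 2.92 ± 0.51 SE, or 7.56-fold with 1 added (limma, adjusted p = 0.0518). It was 3.20 without Krt6a+ library 3 and 2.65 without library 2.

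Dsc3, the desmocollin of the basal layers of stratified epithelium, was near the floor. Its FPKM in Krt6a+ libraries was 0.12 and 4.96, and each of the 3 WAP+ tables listed it at 0. The intervals corresponded to about 3.82 fragments in Krt6a+ library 2 and 160 in Krt6a+ library 3, so its presence rests on library 3. All of this signal was on the transcript NM_007882, and NM_001291809 was listed at 0 throughout. With 1 added to each FPKM, log2 of Dsc3 over Dsc2 was -5.36 and -2.58 in Krt6a+ libraries, against -2.44, -2.31 and -2.17 in WAP+ libraries. That difference of -1.66 (exact two-sided permutation test, p = 0.1, adjusted p = 0.133) became 0.11 with 0.1 added, because Dsc3 was at 0 in WAP+ libraries and the ratio there is set by the added value. It was -0.27 without Krt6a+ library 2 and -3.05 without Krt6a+ library 3.

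Summed over the 4 cadherins, FPKM was 72.4 and 80.4 in Krt6a+ libraries, against 20.1, 14.0 and 16.3 in WAP+ libraries. Dsc2 held 61.9% and 43.1% of this sum in Krt6a+ libraries, against 22.0%, 28.3% and 21.4% in WAP+ libraries. Dsg3 held 30.6% and 40.5% in Krt6a+ libraries, against 2.01%, 0% and 12.2% in WAP+ libraries. Dsc2 was the most abundant cadherin of Krt6a+ library 2 and Dsg2 that of each WAP+ library. In Krt6a+ library 3 the deposited bounds of Dsc2 (32.5 to 36.9) and Dsg3 (30.2 to 34.9) overlapped.

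**Figure D2:**
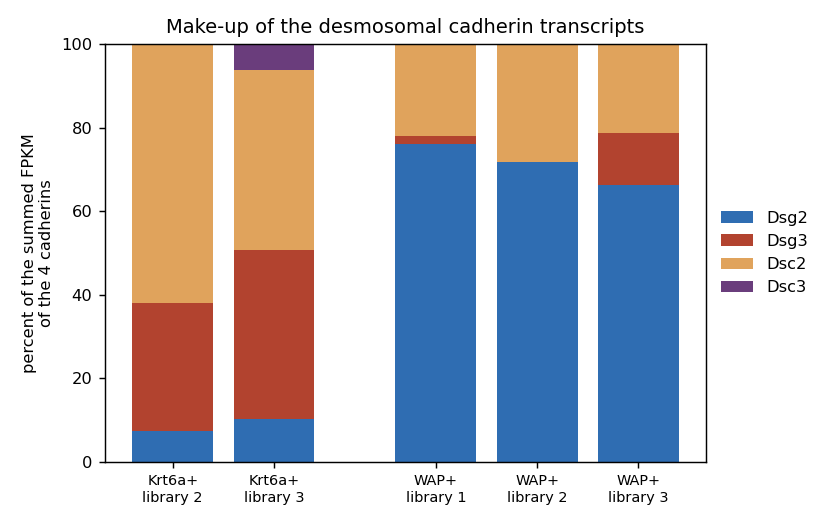
Share of each gene in the summed FPKM of Dsg2, Dsg3, Dsc2 and Dsc3, in percent, for each library. Dsg2 fills 66.3% to 75.9% of the WAP+ bars and 7.29% and 10.3% of the Krt6a+ bars, where Dsc2 and Dsg3 fill most of the rest.

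Armadillo proteins. Jup encodes plakoglobin, a relative of beta-catenin that also takes part in adherens junctions, and its transcript spans 100368856 to 100397790 on chromosome 11. Its FPKM was 81.0 and 132 in Krt6a+ libraries, against 29.8, 26.8 and 37.7 in WAP+ libraries. The groups did not overlap, and the log2 difference of 1.58 ± 0.42 SE did not pass (limma, adjusted p = 0.119). Ctnnb1, beta-catenin itself, had an FPKM of 121 and 125 in Krt6a+ libraries, against 65.9, 68.3 and 64.8 in WAP+ libraries (limma, log2 0.76 ± 0.36 SE, adjusted p = 0.327).

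Plakophilins recruit desmoplakin and strengthen the plaque. Pkp1, the plakophilin of stratified epithelium (chromosome 1, 135871395 to 135919024), had an FPKM of 56.1 and 44.2 in Krt6a+ libraries, against 19.5, 5.85 and 12.1 in WAP+ libraries. The WAP+ values spread 3.33-fold and still lay below both Krt6a+ values (limma, log2 1.94 ± 0.54 SE, adjusted p = 0.129). Pkp3, the most abundant of the plakophilins in each library (chromosome 7), had a summed FPKM of 165 and 117 in Krt6a+ libraries, against 60.3, 50.4 and 60.4 in WAP+ libraries. Its log2 difference of 1.15 ± 0.39 SE was the smallest of the 7 positive ones (limma, adjusted p = 0.189).

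Pkp2, the plakophilin of simple epithelia and of heart muscle (chromosome 16, 16213345 to 16272712), had an FPKM of 8.72 and 4.13 in Krt6a+ libraries, against 10.5, 5.35 and 9.01 in WAP+ libraries. The groups overlapped. The log2 difference was -0.45 ± 0.62 SE with a 95% interval of -1.88 to 0.99 (limma, adjusted p = 0.769), and it was 0.10 without Krt6a+ library 3.

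Within each library, log2 of Pkp1 over Pkp2, each with 1 added, was 2.55 and 3.14 in Krt6a+ libraries, against 0.84, 0.11 and 0.39 in WAP+ libraries. Pkp1 thus exceeded Pkp2 in every library, by more in the Krt6a+ ones (difference of means 2.40, exact two-sided permutation test, p = 0.1, adjusted p = 0.133). Log2 of Pkp1 over Pkp3 was -1.54 and -1.38 in Krt6a+ libraries, against -1.58, -2.91 and -2.23 in WAP+ libraries, and WAP+ library 1 lay close to the Krt6a+ values (difference 0.78, exact two-sided permutation test, p = 0.2, adjusted p = 0.2). That difference was 0.44 without WAP+ library 2 and 1.11 without WAP+ library 1.

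Pkp3 was the 1 tested gene of the set with more than 1 transcript row. NM_019762, which starts at 141079769, carried an FPKM of 144 and 117 in Krt6a+ libraries, against 60.3, 44.8 and 54.3 in WAP+ libraries. NM_001162924, which starts upstream at 141078229, had 21.2 in Krt6a+ library 2 and was listed at 0 in Krt6a+ library 3, against 0, 5.61 and 6.03 in WAP+ libraries. The upstream form thus varied within each population, and NM_019762 kept the groups apart.

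Desmoplakin. Dsp (chromosome 13, 38151294 to 38198577) encodes the plakin that anchors keratin filaments to the plaque. Its FPKM was 64.1 and 44.0 in Krt6a+ libraries, against 9.19, 15.7 and 23.0 in WAP+ libraries. Each Krt6a+ value lay above the WAP+ range, in which WAP+ library 3 was 2.51 times WAP+ library 1. The log2 difference was 1.64 ± 0.58 SE (limma, adjusted p = 0.200), 2.01 without Krt6a+ library 3 and 1.28 without library 2.

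RefSeq promoter windows (GRCm38.p6, 250 bases before to 50 after the start site) were matched for 2 of the 10 genes, Dsp and Jup. Both are shown, as the only windows matched, and were not chosen by expression. Capitals mark GGGCGG or its reverse complement, the box bound by SP and KLF family factors. The Dsp window is chr13:38151044-38151343 on the plus strand and the Jup window chr11:100397741-100398040 on the minus strand.
Dsp: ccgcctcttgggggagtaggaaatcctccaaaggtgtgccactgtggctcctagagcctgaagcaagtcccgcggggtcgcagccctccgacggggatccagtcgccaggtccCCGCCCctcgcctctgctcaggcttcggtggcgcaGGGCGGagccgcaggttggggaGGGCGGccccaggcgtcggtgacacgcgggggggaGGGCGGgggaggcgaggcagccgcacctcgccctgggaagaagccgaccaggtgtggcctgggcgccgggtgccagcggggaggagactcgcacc
Jup: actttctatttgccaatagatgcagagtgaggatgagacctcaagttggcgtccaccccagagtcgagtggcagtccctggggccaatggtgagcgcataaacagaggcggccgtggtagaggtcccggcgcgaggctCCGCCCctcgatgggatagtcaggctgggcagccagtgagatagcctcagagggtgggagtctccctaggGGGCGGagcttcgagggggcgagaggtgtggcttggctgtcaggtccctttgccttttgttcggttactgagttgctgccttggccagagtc
The box occurred 4 times in the Dsp window, with first bases at -137, -102, -80 and -45 from the start site, and 2 times in the Jup window, at -112 and -42. It was present in 35.7% of all 32851 promoter windows. G and C made up 73.0% of the Dsp window and 60.7% of the Jup window. An AP-1 motif (TGANTCA), the first 6 letters of a Grainyhead-like motif (AACCGG) and a TATA box (TATAAA) were searched on both strands and were not in these windows. They were in 7.81%, 6.83% and 13.6% of all windows.

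Perp. This tetraspan membrane protein is a target of p53 and p63 and is needed for desmosome assembly in mouse skin. Its transcript spans 18845071 to 18857072 on chromosome 10. Perp had an FPKM of 240 and 554 in Krt6a+ libraries, against 82.5, 37.2 and 96.8 in WAP+ libraries. It was the most abundant of the 10 genes in each library but WAP+ library 2, where Pkp3 was. Krt6a+ library 3 was 2.31 times Krt6a+ library 2, and the lower of these was 2.47 times the highest WAP+ value. The log2 difference was 2.31 ± 0.52 SE, or 4.96-fold with 1 added (limma, adjusted p = 0.0843). It was 1.82 without Krt6a+ library 3 and 2.82 without library 2.

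**Figure D3:**
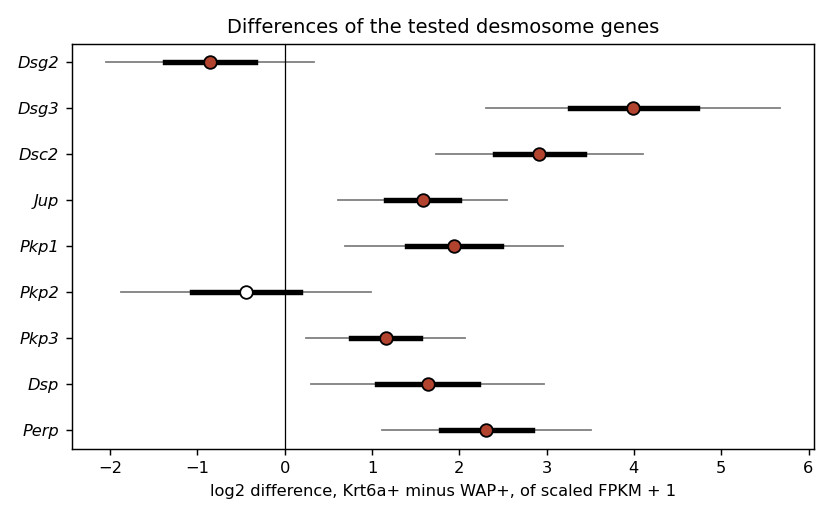
Log2 difference, Krt6a+ minus WAP+, of the 9 tested desmosome genes; thick bars are ± 1 SE, thin bars the 95% interval, and filled points mark genes whose groups did not overlap. The 7 genes right of 0 run from 1.15 (Pkp3) to 3.99 (Dsg3), and Dsg2 (-0.86) and Pkp2 (-0.45) lie left of it.

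The Krt6a+ libraries differed from each other gene by gene. Of the 10 genes, 5 were higher in library 2 (Dsc2, Dsp, Pkp1, Pkp2, Pkp3) and 5 in library 3 (Dsg2, Dsg3, Dsc3, Jup, Perp). For the 9 genes other than Dsc3 the ratio of the higher to the lower library lay between 1.27 (Pkp1) and 2.31 (Perp). The summed FPKM of the 10 genes was 687 and 974 in Krt6a+ libraries, against 232, 155 and 255 in WAP+ libraries. Without Perp it was 447 and 421 in Krt6a+ libraries, against 149, 118 and 159 in WAP+ libraries.

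Other desmosome and desmosome-linked genes. Of 12 further genes, 7 were tested, 0 passed (0.692% of all genes passed in either direction), and 5 did not overlap with Krt6a+ higher and 1, Pkp4, with Krt6a+ lower (17.4% of all tested genes each way). At an unadjusted p under 0.05, 5 were higher and 0 lower, against 7.68% and 9.44% of all genes, and the median log2 difference was 1.70. Pof1b and Cdsn met the level for testing through their Krt6a+ libraries, where they were high, so these counts and their p-values are a description. Pof1b, an actin-binding protein of epithelial junctions, had an FPKM of 30.1 and 13.6 in Krt6a+ libraries, against 2.06, 0.19 and 0.47 in WAP+ libraries (limma, adjusted p = 0.0705). Cdsn, the corneodesmosin of cornifying cells, had an FPKM of 53.6 and 4.74 in Krt6a+ libraries, against 0.19, 0.07 and 0.37 in WAP+ libraries, so the Krt6a+ values lay far apart (limma, adjusted p = 0.118). The nectin gene Nectin4, listed under its older symbol Pvrl4, stood at 53.3 and 32.1 FPKM in Krt6a+ libraries, against 11.1, 2.53 and 5.23 in WAP+ libraries (limma, adjusted p = 0.0981). The plakins Ppl and Evpl, chosen after their values were seen, had an FPKM of 113 and 56.7 and of 10.7 and 8.09 in Krt6a+ libraries, against 23.7 to 29.5 and 0.96 to 4.12 in WAP+ libraries. Of the desmosomal cadherins of differentiated layers, Dsg1c, Dsg4 and Dsc1 were listed at 0 in all libraries, which may be failed estimates. Dsg1a had 0.11 and 2.19 FPKM and Dsg1b 5.86 and 0 FPKM in Krt6a+ libraries, against at most 0.59 and 0.87 FPKM in WAP+ libraries, and these near-identical paralogs share reads, so their split is uncertain.

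Adherens junction genes, the cadherin and catenin complexes that link cells to actin, were spread around 0. Of 12 genes, 11 were tested and 0 passed, 3 did not overlap with Krt6a+ higher and 2 with Krt6a+ lower (17.4% of all tested genes each way), and the median log2 difference was -0.01. At an unadjusted p under 0.05, 0 were higher and 1 lower, against 7.68% and 9.44% of all genes. Cdh1, E-cadherin, had an FPKM of 33.3 and 66.7 in Krt6a+ libraries, against 60.2, 59.3 and 76.9 in WAP+ libraries, a gene chosen after its values were seen (limma, log2 -0.57 ± 0.44 SE, adjusted p = 0.545). Vcl, the actin-linking vinculin, had an FPKM of 8.95 and 22.0 in Krt6a+ libraries, against 33.7, 29.0 and 30.5 in WAP+ libraries (limma, adjusted p = 0.258). Nectin2, listed as Pvrl2, had an FPKM of 20.4 and 15.6 in Krt6a+ libraries, against 7.06, 3.14 and 13.2 in WAP+ libraries (limma, adjusted p = 0.424). Nectin4, a nectin like Nectin2, was counted with the desmosome-linked genes and not here. The log2 difference of Nectin4 was 2.62, above the highest in this list, 1.16. The counts of both lists thus depend on that placement. No test compared this list with the desmosome genes.

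Keratins are the filaments that desmosomes hold. Of 9 keratin genes tested, 3 passed and were higher in Krt6a+ libraries: Krt6b (log2 10.24), the basal keratin Krt5 (4.02) and Krt6a (3.50) (limma, adjusted p = 0.000254, 0.0272 and 0.0384). Of all tested genes, 0.258% passed higher and 0.434% lower. Of the 9 keratins, 5 did not overlap with Krt6a+ higher and 3 with Krt6a+ lower (17.4% of all tested genes each way). The first population is named for Krt6a, its paralog Krt6b shares reads with it, and 6 of the 9 did not pass. The luminal keratins Krt8, Krt18 and Krt19 had negative differences that did not pass, at -3.11, -2.54 and -1.49, with groups that did not overlap. In Krt6a+ libraries 2 and 3, Krt8 had an FPKM of 66.2 and 719, Krt18 of 353 and 1283, and Krt19 of 412 and 803. The WAP+ values were 1664, 1917 and 1681 for Krt8, 4018, 3335 and 3534 for Krt18, and 1860, 1463 and 1206 for Krt19. The Krt6a+ values of Krt8 thus lay far apart.

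Among 9 genes of regulators and proteases linked to desmosomes, 0 passed, and 5 did not overlap with Krt6a+ higher and 1 with Krt6a+ lower (17.4% of all tested genes each way). At an unadjusted p under 0.05, 3 were higher and 0 lower, against 7.68% and 9.44% of all genes, and the median log2 difference was 0.75. Grhl3, a Grainyhead-like transcription factor of the epidermal barrier, had an FPKM of 37.8 and 119 in Krt6a+ libraries, against 8.03, 2.13 and 1.73 in WAP+ libraries (limma, log2 3.90 ± 0.68 SE, adjusted p = 0.0518). Grhl1, a factor that in mouse skin acts on desmosomal cadherin genes, had an FPKM of 40.5 and 32.2 in Krt6a+ libraries, against 13.1, 5.97 and 7.70 in WAP+ libraries (limma, log2 1.86 ± 0.50 SE, adjusted p = 0.121). Trp63, the p63 gene of basal epithelia, had an FPKM of 5.22 and 12.9 in Krt6a+ libraries, against 0.11, 1.65 and 1.99 in WAP+ libraries (limma, log2 2.02 ± 0.76 SE, adjusted p = 0.227). The groups did not overlap for Grhl3, Grhl1 or Trp63. Grhl2, of the same family as Grhl1 and Grhl3, was chosen after its values were seen, and its groups overlapped. Its FPKM was 0.03 and 15.7 in Krt6a+ libraries, against 1.99, 2.38 and 0.62 in WAP+ libraries (limma, log2 0.61 ± 1.10 SE, adjusted p = 0.835).

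**Figure D4:**
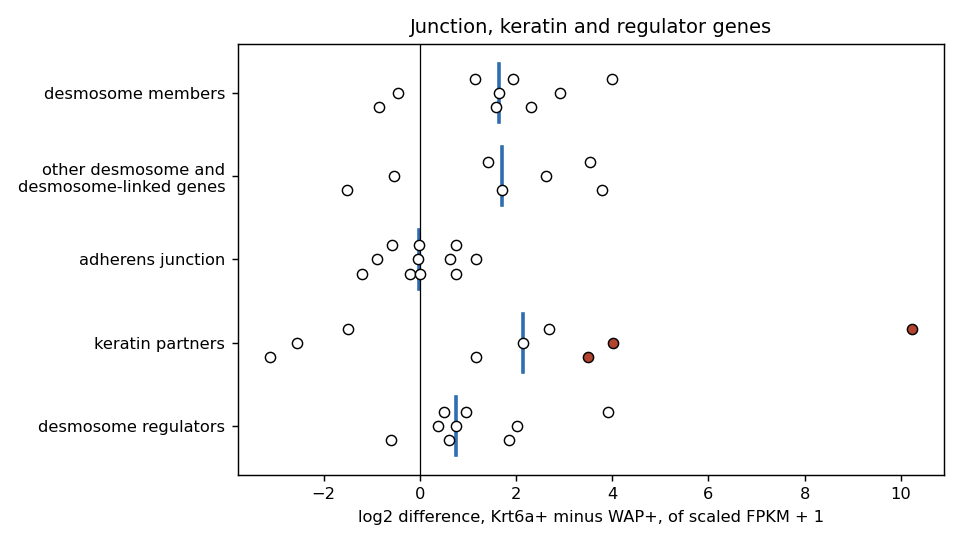
Log2 difference, Krt6a+ minus WAP+, of each tested gene in 5 lists; points are genes, filled where the adjusted p was under 0.05 by limma, and vertical bars are list medians. Medians are 1.64 for the desmosome genes, 1.70 for the linked genes, -0.01 for adherens junction genes, 2.14 for keratins and 0.75 for regulators.

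Markers of cell types were compared in the same way, and of all those tested only the basal keratin Krt5 passed the adjusted test. Of 7 tested luminal markers 0 passed and 6 were lower in Krt6a+ libraries without overlap (17.4% of all tested genes were), and the FPKM of the 10 listed summed to 1435 and 3801 in Krt6a+ libraries, against 7931 to 9053 in WAP+ libraries, with Pgr at 0 in all. Of 6 tested basal and myoepithelial markers 1 passed, and 3 were higher and 2 lower without overlap (17.4% of all tested genes each way). The 8 listed summed to 2725 and 2653 in Krt6a+ libraries, against 194 to 1008 in WAP+ libraries, and Krt14 carried most of each sum, at 2284 and 2263 in Krt6a+ libraries, against 936, 130 and 862 in WAP+ libraries. The contractile genes Acta2 and Tagln had log2 differences of -3.62 and -3.57 that did not pass (limma, adjusted p = 0.0550 and 0.0567). Acta2 and Tagln met the level for testing through their WAP+ libraries, where they were high. Their p-values and their part in the counts of basal and myoepithelial markers are therefore a description. The 6 fibroblast markers summed to 57.5 and 210.1 in Krt6a+ libraries, against 8.60 to 84.2 in WAP+ libraries, and 0 of 4 tested passed. Dcn carried most of each sum, at 49.4 and 210.0 in Krt6a+ libraries, against 16.3, 8.60 and 67.0 in WAP+ libraries. The 6 endothelial markers summed to at most 0.74 in Krt6a+ libraries and to 23.5 in WAP+ library 1 (0.03 and 0.17 in the other WAP+ libraries), none reaching the level for testing. Of 7 leukocyte markers 6, Ptprc included, were at 0 in every library, and Cd68 ranged from 6.49 to 17.8 in Krt6a+ and from 9.08 to 26.4 in WAP+ libraries. Of 6 adipocyte markers 5, Adipoq included, were at 0 throughout, and Fabp4 was at 0 in Krt6a+ libraries, against 2188, 65.8 and 20.3 in WAP+ libraries. The part of these cell types in the desmosome differences was not tested.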

How the data were processed

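RNA-seq of 2 Krt6a+ and 3 WAP+ libraries was analysed from transcript tables. The authors' deposited values are FPKM, per the file headers, with a lower and an upper bound, already corrected by the authors for transcript length and sequencing depth. Per the labels' protocols, cDNA was made with SMART-Seq v4 and Nextera. That kit does not mark strand, so antisense reads cannot be told apart. TopHat, Cufflinks and mm10 are named in the submitters' processing notes, with no versions. Between 24.9% and 27.0% of the values that implied 200 fragments or fewer came within 0.02 of an integer. Whole reads could not be recovered from them, and no count test was run.

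Rows of a symbol were summed. Libraries were scaled by median ratio over 5334 genes (factors 0.891 to 1.16). The 9682 genes that reached FPKM 1 in 2 or more libraries were tested on log2(scaled FPKM + 1), a scale that understates the change of low genes. The test was limma 3.58.1 in R 4.3.3, with a mean-variance trend, two-sided and Benjamini-Hochberg adjusted over all of them. The procedure was tested on simulated data. The error of a mean is the SD of scaled FPKM over libraries. Fragment numbers from the intervals cover counting error only. Starts were converted to count from 1. Older symbols were matched by RefSeq accession for 5 list genes. The 10 genes and all lists were chosen with earlier results of these data known. Beyond the 10 genes, Krt6a and Wap, the text names genes that passed in 4 junction, keratin and regulator lists and the 3 with the largest moderated statistic in each. Others were chosen after seeing their values. Alternatives varied the pseudocount, filter, scaling, trend, rows per symbol, replicate block and libraries.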

Additional observations from a re-analysis of the deposited data

How the results depend on the processing

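Across 14 alternatives, the differences of Dsc2, Jup, Pkp1, Pkp3, Dsp and Perp stayed positive and that of Dsg2 negative. That of Dsg3 was positive in the 13 that could include it (2.38 to 5.74). Pkp2 ran from -0.99 to 0.10 when 1 library was left out, and was positive (0.10) without Krt6a+ replicate 3. Of the desmosome genes, 2 passed with a pseudocount of 5 (Dsg3, adjusted p = 0.0472, and Dsc2, 0.0498) and 2 when a gene had to reach FPKM 1 in every library (Dsc2, 0.0180, and Perp, 0.0322; Dsg3 could not enter), where fewer genes were tested, and 0 passed in the other 12. Adjusted p ranged over the alternatives from 0.0472 to 0.201 for Dsg3, from 0.0180 to 0.201 for Dsc2 and from 0.0322 to 0.236 for Perp.

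Calls over all genes, higher and lower in Krt6a+, were 25 and 42. They were 6 and 20 with a pseudocount of 0.1, 2 and 3 with no filter, 80 and 99 when FPKM 1 was required in every library, 7 and 9 without the mean-variance trend, and 16 and 22 with a replicate block. Higher calls were 43 with a pseudocount of 5 and 39 with quantile normalization, and lower calls 27 with no scaling. Leaving out 1 library gave 2 to 45 higher and 3 to 103 lower. The causes were not tested. For libraries with the same number, the correlation of deviations from the group means was 0.05 for number 2 and 0.00 for number 3. The deviations of the 2 Krt6a+ libraries mirror each other, so these values cannot decide whether such libraries share an animal or batch. The block left 0 desmosome genes past the threshold.

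The Dsg3 to Dsg2 difference ran from 3.01 to 6.67 and kept its sign, and the Dsc3 to Dsc2 difference became 0.11 with a pseudocount of 0.1. Leaving out 1 library moved the Dsc3 to Dsc2 difference between -3.05 and -0.27 and the Pkp1 to Pkp3 difference between 0.44 and 1.11.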
